A study of Homo sapiens with 117 samples.

Results

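CTCF occupancy was compared between DIvA cells expressing IDH1 WT that had been treated with 4-hydroxytamoxifen (4-OHT, 300 nM for 4 h, +DSB) and untreated IDH1 WT cells (−DSB). The comparison rests on 7 CTCF ChIP-seq peak lists, 4 labelled IDH1 WT +DSB (replicates 1 to 4) and 3 labelled IDH1 WT −DSB (replicates 2 to 4), of 24 lists analysed in a series of 117 samples. For the first untreated WT replicate no list was analysed here. DIvA is a line derived from U2OS osteosarcoma cells in which the restriction enzyme AsiSI is fused to the hormone-binding domain of the estrogen receptor, and 4-OHT brings the enzyme into the nucleus, where it cuts its recognition sites. All groups carry this enzyme and a lentiviral IDH1 transgene, IDH1 WT in the 7 lists and IDH1 R132H in 8 further lists (4 −DSB, 4 +DSB) that served for comparison. A CTCF ChIP-seq list holds no expression values, so the cell type could not be checked against marker genes. Because the fold of a peak over background is not normalized between lists, the 20000 peaks with the highest fold were taken from every list, and rank 1 is the highest fold of a list.

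CTCF is a zinc finger protein that binds a GC-rich motif and halts the cohesin ring as it extrudes chromatin loops, so that its sites mark loop anchors and domain boundaries. Many of its sites lie far from genes, and a further part lies at promoters and in CpG islands. Methylation of cytosines in the motif weakens its binding at some sites, and CTCF has also been found at double-strand breaks, where repair by homologous recombination takes place.

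In column 4 of the lists, each peak carries the name of its run, and these names conflict with the labels. The 3 lists labelled IDH1 WT −DSB carry names that read RH_neg, the 4 labelled IDH1 WT +DSB read wt_pos, and the lists labelled IDH1 R132H −DSB read wt_neg. The groups below follow the labels, and the composition of the peaks, the counts of gained and lost sites, the limma counts and the difference between genotypes are also given with the lists labelled IDH1 R132H −DSB as the untreated wild-type group, as the run names have it. The breakdowns by GC content, chromosome and gene list follow the labels alone. Depth and fragment length moved with the treatment groups as well. The fold steps and an assumed genome size of 2.7 Gb gave an estimated 22.7 to 35.1 M (mega) reads for the −DSB lists and 70.9 to 85.5 M reads for the +DSB lists, and the shortest peak, which stands for the fragment length, was 124 to 128 bp and 143 to 191 bp. The depth per condition stated in the paper's reporting summary is lower than the +DSB estimates, and this difference was not resolved. The part of depth and fragment length in the results was not tested, and they cannot be told apart from the treatment in these 7 lists. Read numbers at common summits varied within the sampling noise between −DSB replicates 3 and 4 (1.00 times the counting noise) and between +DSB replicates 3 and 4 (0.651 times), so each pair was counted as 1 sample, which leaves 2 −DSB and 3 +DSB samples. The labels do not say whether the samples came from separate cultures, so the p-values measure the spread between these samples only. The paper's figure legend gives 2 biological replicates for the CTCF ChIP-seq, and its reporting summary gives 2 in one place and 2 to 4 in another. Some of the samples counted here may therefore not be biological replicates. Replicate 2 of the +DSB group stood apart from the other +DSB lists, with 3.10 to 4.10 times the counting noise against 1.12 and 1.32 between replicate 1 and replicates 3 and 4.

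Among the 20000 highest peaks, CTCF summits lay more often at promoters and in GC-rich sequence in the lists labelled +DSB. Summits within 1 kb of the transcription start site (TSS) of a protein-coding gene made up 8.74%, 9.58% and 9.61% of the −DSB lists, and 11.4%, 11.1%, 12.9% and 13.3% of the +DSB lists. Every +DSB list was above every −DSB list, with means of 9.17% ± 0.603 (SD, n = 2 samples) and 11.9% ± 1.10 (SD, n = 3 samples). The mean GC content of the 200 bp around the summit was 49.7% ± 0.533 (SD, n = 2) and 51.9% ± 0.819 (SD, n = 3), and the share of windows with the composition of a CpG island 14.8% ± 0.760 and 17.8% ± 1.34 (SD, same n), again without overlap. Intergenic summits went the other way, from 38.6% ± 2.51 to 33.5% ± 0.679 (SD, same n). For promoters, GC content and CpG islands the two-sided exact permutation test gave p = 0.1, the smallest p that 2 against 3 samples allow, and 0.125 after Benjamini-Hochberg adjustment over 5 measures, so none could pass 0.05. The CTCF core (CCA, any 2 bases, AG, any 2 bases, GGC), searched on both strands within 50 bp of the summit, was found in 33.4% ± 0.870 and 33.9% ± 0.387 (SD, same n) of the summits (exact permutation test, p = 0.6), a difference within the spread of the samples. That difference was 0.41 points, and it was 1.57 with a looser core (CC, any 3 bases, AG, any 2 bases, GGC) and 3.51 among the 50000 highest peaks (exact permutation test, p = 0.1 for both), but -2.57 among the 10000 highest (p = 0.1, same test). When the run names set the groups, the promoter share was higher in +DSB by 1.32 percentage points, GC content by 1.11 and CpG island-like windows by 1.49 points (exact permutation test, p = 0.1 for each), against 2.69, 2.26 and 2.99 points with the labels.

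**Figure D1:**
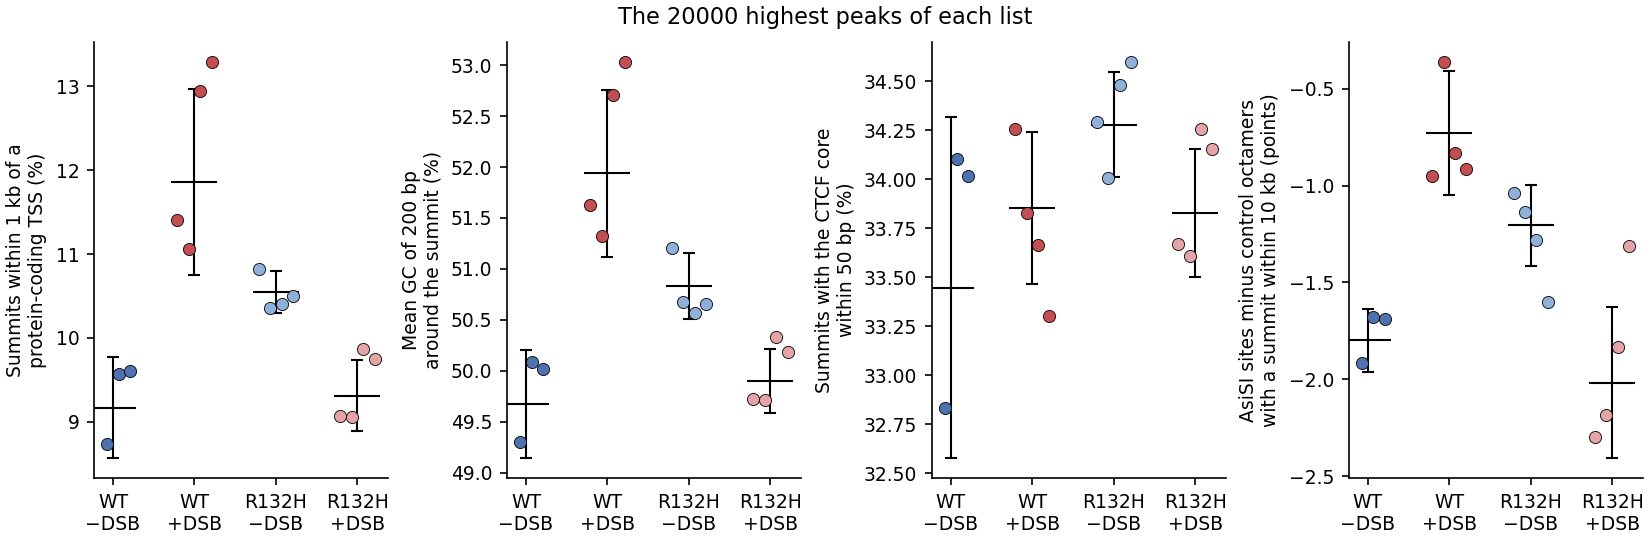
Each point is 1 list, and the bar and whiskers give the mean and SD over samples (lists counted as 1 sample averaged first) for the 20000 highest peaks. Axes show percent of summits, GC percent or percentage points and do not start at 0. The 4 WT +DSB lists are above the 3 WT −DSB lists for promoters, GC content and AsiSI sites, the CTCF core overlaps, and the R132H groups lie in the opposite order for promoters and GC content, with overlap for AsiSI sites.

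The 20000 highest peaks of the 7 lists merged into 25018 sites, of which 14871 (59.4%) were present in every list. A site was called gained when it was among the 20000 in all 4 +DSB lists and in no −DSB list, and lost when it was in all 3 −DSB lists and in no +DSB list. There were 1555 gained sites (6.22% of 25018) and 1139 lost sites (4.55%). Counted over lists, Fisher's exact test gives such a site p = 0.0286 and an adjusted p of 0.265, so none of the 2694 passed 0.05 after adjustment. The ranks of these sites lay near the limit of 20000. At gained sites the median of the mean rank was 14991 in the +DSB lists and 27866 in the −DSB lists, and at lost sites it was 25500 and 16328. In the full lists, 7 gained sites had no peak in any −DSB list and 2 lost sites had none in any +DSB list. Under the groups of the run names there were 88 gained and 61 lost sites, 0.381% and 0.264% of 23087 merged sites, with 25.0% and 0% of them at protein-coding promoters.

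Gained and lost sites differed in where they lay. Of the gained sites, 290 (18.6%) were at a protein-coding promoter, against 21 (1.84%) of the lost sites and 2747 of all 25018 merged sites. Intergenic positions held 398 gained sites (25.6%) and 547 lost sites (48.0%), against 37.1% of all. Introns held 43.0% of the gained, 40.6% of the lost and 40.4% of all sites, close to each other. The median distance to a protein-coding TSS was 17.0 kb for gained and 89.7 kb for lost sites, with 30.4 kb for all. Mean GC content was 56.3% at gained, 41.3% at lost and 50.4% at all sites. The CTCF core was found at 340 gained (21.9%) and 248 lost sites (21.8%), less often than at the sites present in every list (37.1%). Over all sites it was found at 30.5%, and in windows of the same length placed 1000 bp away at 0.342%. With the looser core the gained and lost sites were not alike, with 554 gained (35.6%) and 319 lost sites (28.0%). It was found at 49.8% of the sites present in every list and at 41.8% of all sites. These shares describe sites chosen by the same lists and carry no test.

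Sequences are shown for leading sites of each named class, because the classes differ in base composition, most of all the distal ones. They are taken from the hg38 reference, around the core or, where there is none, around the summit, and are cut to 30 bases where an untranslated region is annotated. Capitals mark the core where it is present, and otherwise CpG dinucleotides. The gained promoter sites lie at MCF2L (chr13:113002349-113002449, + strand) and PNMA6A (chrX:153071982-153072082, − strand), the gained distal sites nearest to DACT2 (chr6:168356074-168356174, + strand) and in TTC28 (chr22:28442372-28442472, + strand). The lost promoter sites lie at PCDHGA6 (chr5:141373834-141373863, + strand) and STX6 (chr1:181023071-181023100, + strand), and the lost distal site nearest to CDH20 (chr18:61023401-61023501, + strand).
MCF2L, gained: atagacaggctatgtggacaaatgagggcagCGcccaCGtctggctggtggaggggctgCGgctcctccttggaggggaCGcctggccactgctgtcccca
PNMA6A, gained: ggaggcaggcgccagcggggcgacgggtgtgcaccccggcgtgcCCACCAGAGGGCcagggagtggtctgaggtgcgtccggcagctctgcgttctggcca
DACT2 distal, gained: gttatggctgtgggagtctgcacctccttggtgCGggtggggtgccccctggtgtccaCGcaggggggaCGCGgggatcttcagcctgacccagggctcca
TTC28 distal, gained: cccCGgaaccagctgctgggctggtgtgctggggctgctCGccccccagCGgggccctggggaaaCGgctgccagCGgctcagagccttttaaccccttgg
PCDHGA6, lost: gttaggactctaagCGtCGctgttgaccaa
STX6, lost: ctctctcctctctctcctctctctcctctc
CDH20 distal, lost: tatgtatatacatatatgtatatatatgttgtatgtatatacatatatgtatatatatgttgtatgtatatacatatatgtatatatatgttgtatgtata
The gained windows hold 65.3%, 74.3%, 68.3% and 71.3% G and C in this order. The lost promoter windows hold 50.0% (PCDHGA6) and 56.7% (STX6), and the distal lost window holds 15.8%. The latter, like the STX6 window, is made of a repeated short unit. Among the 7 sequences shown, the core is present in the PNMA6A window.

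The gained promoter sites that moved most in rank were at MCF2L, PNMA6A, TACR1, JUP, MYL9, FAM221A, RASAL1, NPEPL1, FRMD3 and PSG6. All 10 windows had a GC content of 60.5% to 86.5%, and the PNMA6A site alone had the core. JUP encodes plakoglobin, a component of cell junctions. The JUP site (chr17:41785236-41788032) had ranks of 51377, 30226 and 30403 in the −DSB lists and 2785, 3903, 1617 and 1227 in the +DSB lists, and its log2 difference in fold was 2.83 ± 0.162 (SE; limma, adjusted p = 6.1e-05). FAM221A had ranks of 28862, 23025 and 20983 against 1218, 2864, 2107 and 1730. At RASAL1, which encodes a Ras GTPase-activating protein, they were 34517, 37389 and 32158 against 2515, 4385, 2485 and 2628. At all 3 promoters the groups did not overlap, as the call requires, and the sites were named for their large change in rank. The −DSB lists still held a peak at each of them. TACR1, the receptor of substance P, was ranked 123985 to 294628 in the −DSB lists and 8047 to 14485 in the +DSB lists, with a log2 difference of 3.31 ± 0.285 (SE; limma, adjusted p = 8.0e-05). MYL9, a regulatory light chain of myosin, ranged from 33133 to 250941 and from 8570 to 12132. Peaks were absent from part of the −DSB lists at MCF2L, PNMA6A and PSG6 (a pregnancy-specific glycoprotein), so these 3 had no limma value. The other 7 passed the limma threshold with log2 differences of 1.77 to 3.31. Limma used the same folds that set the calls, and 1409 of the 1495 gained sites tested (94.2%) passed. Passing is therefore no separate support for a named site. In the lists labelled IDH1 R132H −DSB, 6 of the 10 sites were among the 20000 in all 4 lists, and in those labelled IDH1 R132H +DSB 9 of the 10 were in none.

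The 10 lost promoter sites with the largest change were at PCDHGA6, STX6, SLITRK3, QRFPR, PCDHGB2, SOX5, PCDHGA4, FAIM, HMGA2 and PCDHGA10. Their changes in rank were smaller than at the gained promoters, and none had the core. Of the 21 lost promoter sites, 7 were at clustered protocadherins, a family picked out after the calls were seen. Of all 2747 merged promoter sites 31 were at these genes, and of the 290 gained ones 0. Most of the 31 were not lost, with 15 present in every list and 9 neither called nor present in every list. These genes encode adhesion molecules of neurons whose alternative promoters are chosen with the help of CTCF and cohesin. At PCDHGA6 (chr5:141373325-141374262) the ranks were 13814, 11360 and 12805 in the −DSB lists and 31551, 28961, 36307 and 34747 in the +DSB lists, a log2 difference of -1.78 ± 0.241 (SE; limma, adjusted p = 0.00053). PCDHGB2 was ranked 12321 to 15699 against 28498 to 33333, PCDHGA4 11286 to 15302 against 24633 to 31866, and PCDHGA10 11037 to 14313 against 22677 to 25647. The 2 groups did not overlap at any of these 4 promoters, as the call requires, and without normalization PCDHGA10 did not pass limma (adjusted p = 0.094). STX6, a SNARE protein of membrane traffic, had ranks of 6395, 9802 and 9555 against 23242, 21519, 20826 and 20443. SOX5, a transcription factor with an HMG box, and HMGA2, an architectural chromatin protein, had log2 differences of -1.61 ± 0.301 and -1.53 ± 0.298 (SE; limma, adjusted p = 0.0026 and 0.0032). All 10 passed the limma threshold, with SLITRK3 and QRFPR at the lower end (-1.97 at QRFPR) and PCDHGA10 at -1.03. Of the 1133 lost sites tested, 1019 (89.9%) passed on the folds that set the calls, so this is no separate support either. All 10 were among the 20000 in the 4 lists labelled IDH1 R132H +DSB, and 9 were in none of those labelled IDH1 R132H −DSB.

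**Figure D2:**
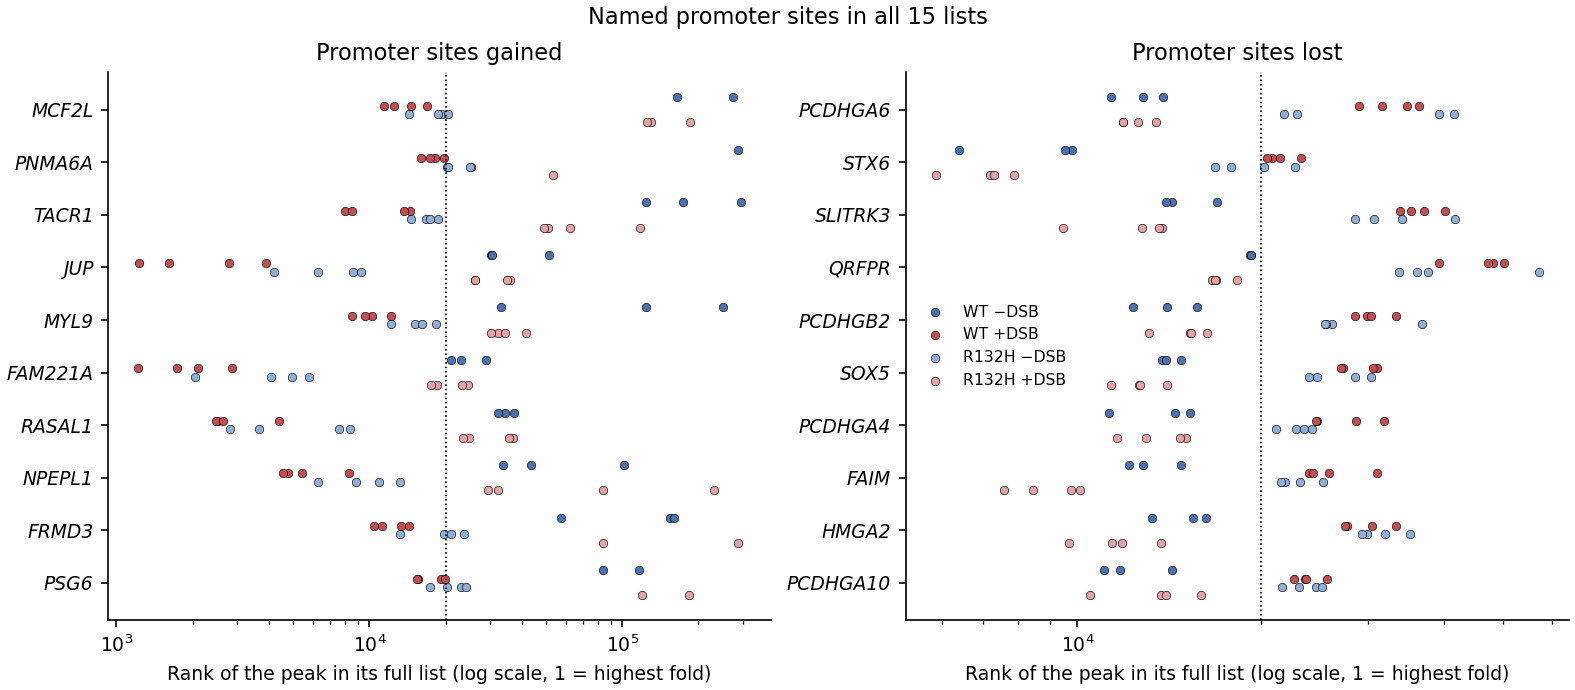
Rank of the peak at each named promoter site (log axis, 1 = highest fold of a list) in the 15 lists, 1 point per list, with lists without a peak not drawn. The dotted line marks rank 20000. WT +DSB and R132H −DSB points lie on one side at most genes, and WT −DSB and R132H +DSB points on the other.

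The change in rank was also taken as the log2 ratio of mean ranks. At the named lost sites more than 10 kb from a protein-coding TSS it was 3.88 to 7.09, against 0.952 to 1.38 at the lost promoters. For gained sites the classes lay close, with 4.24 to 4.77 at distal sites and 3.30 to 4.25 at promoters. List size plus 1 stood for the rank where a list had no peak. The distal classes hold 5 sites each and the promoter classes 10. The gained distal sites were nearest to DACT2, TTC28, SFXN1, H1-10 and ARID1B, all with 59.0% to 76.5% GC and none with the core. The site in an intron of TTC28, 135.8 kb from the nearest protein-coding TSS, had ranks of 31749, 20073 and 22134 in the −DSB lists and 1066, 1554, 493 and 515 in the +DSB lists (log2 difference 1.88 ± 0.148, SE; limma, adjusted p = 6.5e-05). The sites near SFXN1, H1-10 and ARID1B had no peak in any −DSB list. Lost distal sites were nearest to CDH20, ADCY8, DUSP10 and ANGPT1, of low GC content (15.5% at CDH20, 25.0% at DUSP10). The site nearest to CDH20, 310.0 kb away, was among the strongest of the −DSB lists, with ranks of 336, 1171 and 1468. In the +DSB lists it had ranks of 63718, 73086 and 192851 in replicates 1, 2 and 4, and no peak in replicate 3. The ADCY8 site was ranked 210 to 1617 against 32506 to 60242, a log2 difference of -3.28 ± 0.222 (SE; limma, adjusted p = 6.1e-05).

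The strength of a site was also compared where all 7 full lists had a peak, by limma on the log2 fold after quantile normalization. Of 24752 such sites, 5777 (23.3%) had a higher and 5768 (23.3%) a lower fold in the lists labelled +DSB at an adjusted p under 0.05, 46.6% in all. The median size of the difference at these sites was 0.698 on the log2 scale, and 3880 differed by more than 1. Protein-coding promoters were mostly on the higher side, with 1246 of 2717 higher (45.9%) and 131 lower (4.82%), and a median of 0.30 against -0.03 over all sites. Intergenic sites were mostly on the lower side, with 1412 of 9165 higher (15.4%) and 3187 lower (34.8%). Sites with the CTCF core were split, 1468 of 7602 higher (19.3%) and 1634 lower (21.5%). With median centring the split of the calls moved from 50.0% to 39.8% higher, and the median of all sites from -0.03 to -0.20. Without −DSB replicate 2, 3479 were higher and 1128 lower. That fit has 1 −DSB sample, so its spread comes from the +DSB samples, and the lone sample is assumed to vary like them. When the run names set the groups, limma called 0 of 23085 sites, with 3637 at an unadjusted p under 0.05.

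GC content ordered the direction of the change. Among sites under 35% GC, 73 of 1645 were higher (4.44%) and 766 lower (46.6%, limma). From 65% GC upward, 1709 of 3497 were higher (48.9%) and 103 lower (2.95%). Over the 5 GC classes, from low to high, the share of gained sites went from 1.02% to 10.7% and that of lost sites from 14.3% to 0.281%. Sites outside promoters followed the same order, with 0.970% to 10.3% gained and 14.3% to 0.469% lost. Sites with the core had 0.742% gained and 13.2% lost in the lowest class, and 6.70% and 0.253% in the highest. When each list was centred within GC classes before the fit, an alternative added after the data had been seen, 5198 sites were higher and 4461 lower by limma.

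**Figure D3:**
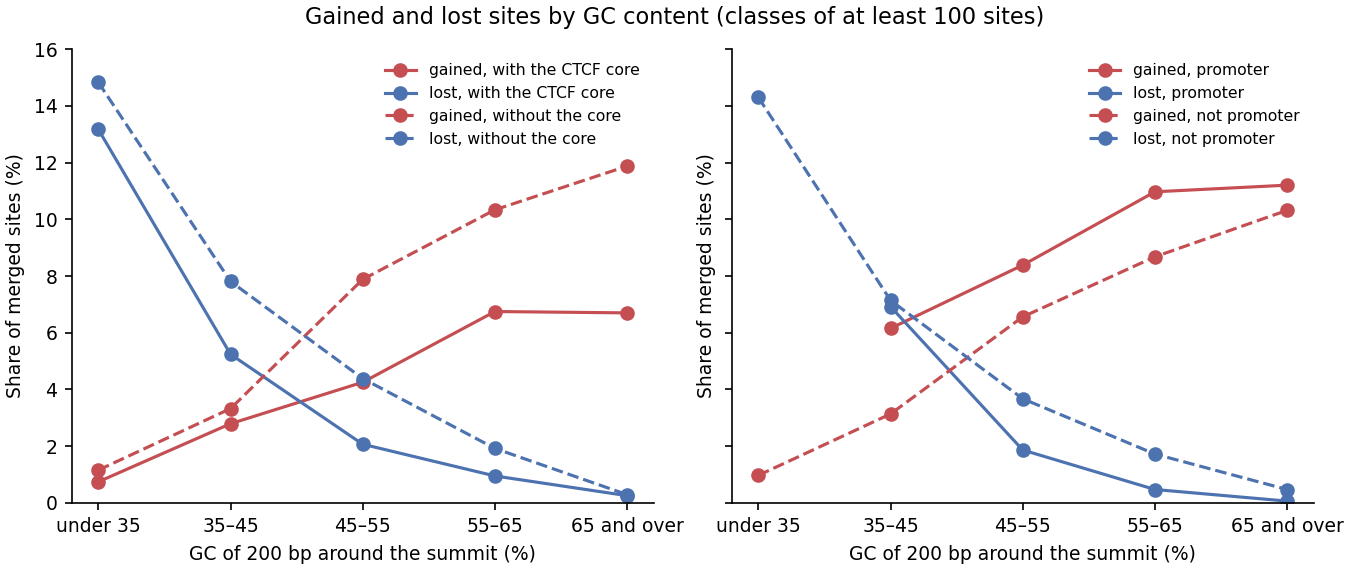
Share of merged sites (percent) called gained (red) or lost (blue) in classes of GC content of the 200 bp around the summit, for sites with and without the CTCF core (left) and at and away from protein-coding promoters (right). Classes under 100 sites are left out. The gained share of all sites goes from 1.02% in the lowest class to 10.7% in the highest and the lost share from 14.3% to 0.281%, with 6.15% of promoter sites and 3.14% of other sites gained from 35% to 45% GC.

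The changes were also unequal along the chromosomes. Chromosome X had 106 lost sites of 649 (16.3%) and 17 gained (2.62%), with a median log2 difference of -0.36. Chromosomes 4, 13 and 8 followed, with 8.70%, 8.72% and 8.56% lost, and 29 of 1127, 17 of 447 and 28 of 1063 gained. Gained sites were most frequent on chromosome 17 (112 of 1190, 9.41%) and chromosome 2 (166 of 1907, 8.70%), where 2.86% and 1.47% were lost. The mean GC content of the sites on chromosomes X and 2 was alike (49.4% and 49.5%). In windows of 10 Mb with at least 20 sites, the median log2 difference ranged from -1.70 to 0.55 over 299 windows. On chromosome 2 it was 0.55 from 120 to 130 Mb, 0.40 from 90 to 100 Mb and 0.36 from 100 to 110 Mb. The lowest windows lay next to centromeres. In 10 windows of 1 Mb on chromosomes 1, 5, 10, 12 and 19, each with over 50 sites, there were 959 sites of which none had the core, 124 were lost and 0 were gained, and limma put 891 of 932 tested lower (95.6%). Without these windows 1015 lost sites remained, with a mean GC content of 41.6%.

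**Figure D4:**
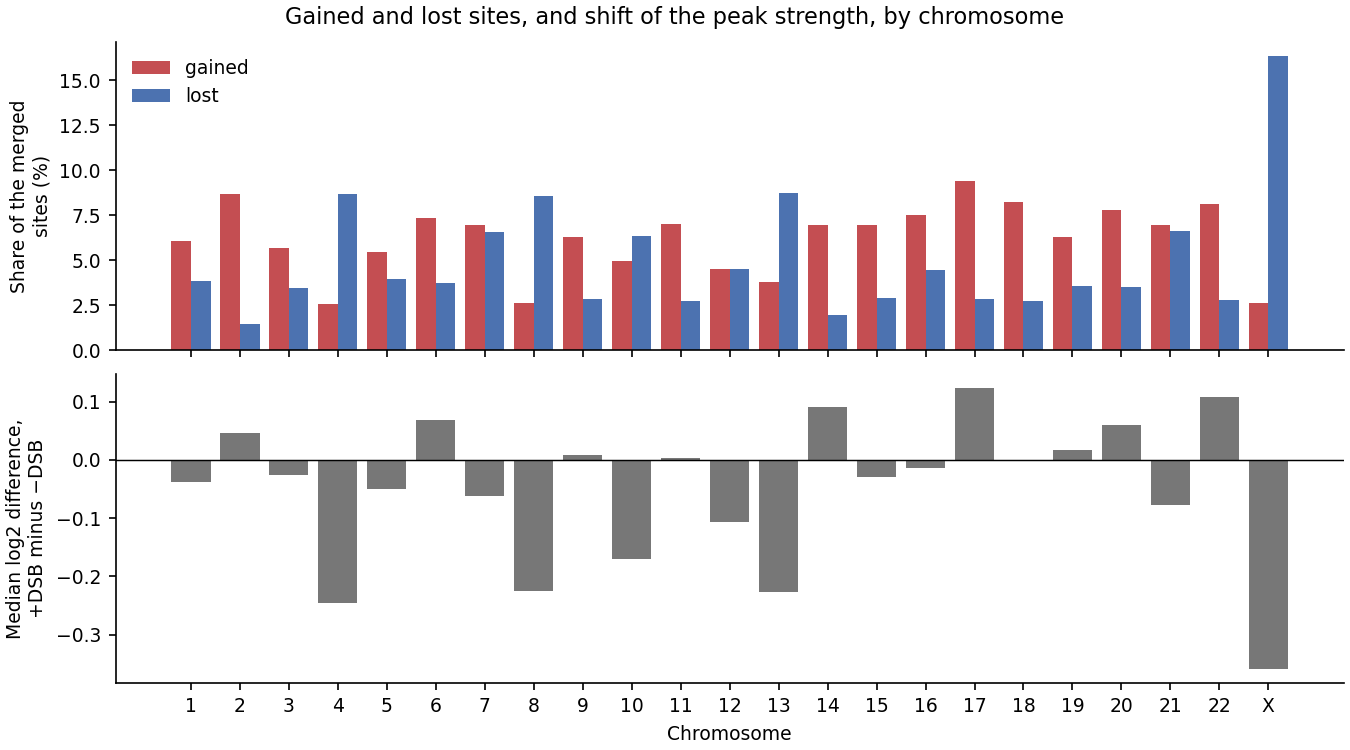
Top, percent of the merged sites of each chromosome called gained (red) or lost (blue). Bottom, median log2 difference in fold, +DSB minus −DSB, over the sites tested by limma. Chromosome X has 16.3% lost sites and the lowest median, and chromosome 17 the highest share of gained sites.

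Gene lists for DNA repair and CTCF itself were read at promoters. Of 130 genes in 9 lists, 32 had a merged site within 1 kb of a TSS, 3 a gained site, 0 a lost site, 13 a site with a higher fold and 3 one with a lower fold by limma. Among all 2911 protein-coding genes with a site, 314 (10.8%) had a gained and 21 a lost site, 1354 (46.5%) a higher and 138 (4.74%) a lower one, so the lists lay near this background. The genes with a gained site were CTCF, RIF1 and ATF3. Below, a gene is said to rise or fall when the fold of the CTCF peak at its promoter did. Expression was not measured. The promoter of CTCF (chr16:67561580-67563884) had ranks of 42162, 24257 and 22693 in the −DSB lists and 19601, 17192, 13545 and 11619 in the +DSB lists, a log2 difference of 1.18 ± 0.297 (SE; limma, adjusted p = 0.0098). In the CTCF and cohesin list, 7 of 16 genes had a site, and besides CTCF the cohesin subunit STAG1 and the cohesin loader NIPBL rose, by 0.28 ± 0.0770 and 0.77 ± 0.169 (SE; limma, adjusted p = 0.014 and 0.0054). In homologous recombination 4 of 22 genes had a site and 0 passed limma. In end joining, RIF1, which limits resection of broken ends, rose by 0.79 ± 0.185 and POLQ, the polymerase of microhomology-mediated joining, fell by 0.57 on the log2 scale (limma, adjusted p = 0.0072 and 0.025). Of the damage signalling genes, the kinase ATM and the phosphatase PPM1D rose, by 0.41 and 0.32 (limma, adjusted p = 0.043 and 0.0037). Of 5 p53 targets with a site, the proapoptotic BBC3 rose by 0.63 and the death receptor FAS fell by 0.41 on the log2 scale (limma, adjusted p = 0.00012 and 0.045). BBC3 was ranked 7307 to 9390 in the −DSB lists and 289 to 630 in the +DSB lists. In the lists labelled R132H −DSB (run names wt_neg) it was ranked 369 to 1285, near the WT +DSB ranks. In those labelled R132H +DSB it was ranked 6047 to 9106. In the immediate early list, 2 of 4 genes with a site rose, ATF3 by 0.98 and IER3 by 0.94 (limma, adjusted p = 0.0042 and 0.029). IDH1 and DNMT3A, the 2 genes with a site in the list of TET, DNMT and IDH genes, rose by 0.69 and 0.65 (limma, adjusted p = 0.00098 and 0.00038). RARA rose by 1.14 among oestrogen receptor targets, and in the histone list H3-3B rose by 1.31 and H3-3A fell by 0.28 on the log2 scale (limma, adjusted p = 0.00028, 0.00019 and 0.027). In the R132H lists the order of the treatments was also the opposite at H3-3B. It was ranked 1891 to 6040 in those labelled −DSB and 15086 to 17873 in those labelled +DSB.

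AsiSI cuts GCGATCGC, and octamers of the same bases that it does not cut (GCGTACGC, CGCATGCG and CGGATCCG) show what GC-rich positions do in general. Of 1220 AsiSI sites and 5349 control octamers, the share with a summit within 10 kb among the 20000 highest peaks differed by -1.80 ± 0.164 percentage points (SD, n = 2 samples) in −DSB and by -0.728 ± 0.321 (SD, n = 3) in +DSB. AsiSI sites thus stayed below the control octamers in both groups, and the gap was narrower in +DSB by 1.07 points (exact permutation test, p = 0.1, adjusted p = 0.125). When the run names set the groups, this change was 0.478 points (exact permutation test, p = 0.1). Among the 50000 highest peaks the change in this gap turned round. Of the 352 merged sites within 10 kb of an AsiSI site, 32 were gained (9.09%) and 6 lost (1.70%), and of the 1466 within 10 kb of a control octamer 133 were gained (9.07%) and 42 lost (2.86%). By limma, 126 of 350 tested sites near AsiSI were higher (36.0%) and 34 lower (9.71%), and 488 of 1447 near control octamers were higher (33.7%) and 177 lower (12.2%). The shares near AsiSI recognition sites and near the control octamers were thus of similar size. The 1220 sites are all matches in the reference, and which of them were cut in these cells was not known here. The values therefore do not describe CTCF at the breaks alone.

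The R132H lists, which did not enter the calls, separated the gained and lost sites by treatment label in the opposite order. Of the 1555 gained sites, 66.4% to 89.3% were among the 20000 in the 4 lists labelled IDH1 R132H −DSB, and 6.69% to 11.9% in the 4 labelled IDH1 R132H +DSB. Of the 1139 lost sites, 9.22% to 34.9% were found in the former and 87.4% to 90.6% in the latter. Sites present in all 7 WT lists were found in 98.5% to 99.6% of cases in each of the 8 lists. The estimated depth also followed this order, with 44.3 to 63.2 M reads in the lists labelled IDH1 R132H −DSB and 23.7 to 34.6 M reads in those labelled IDH1 R132H +DSB.

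**Figure D5:**
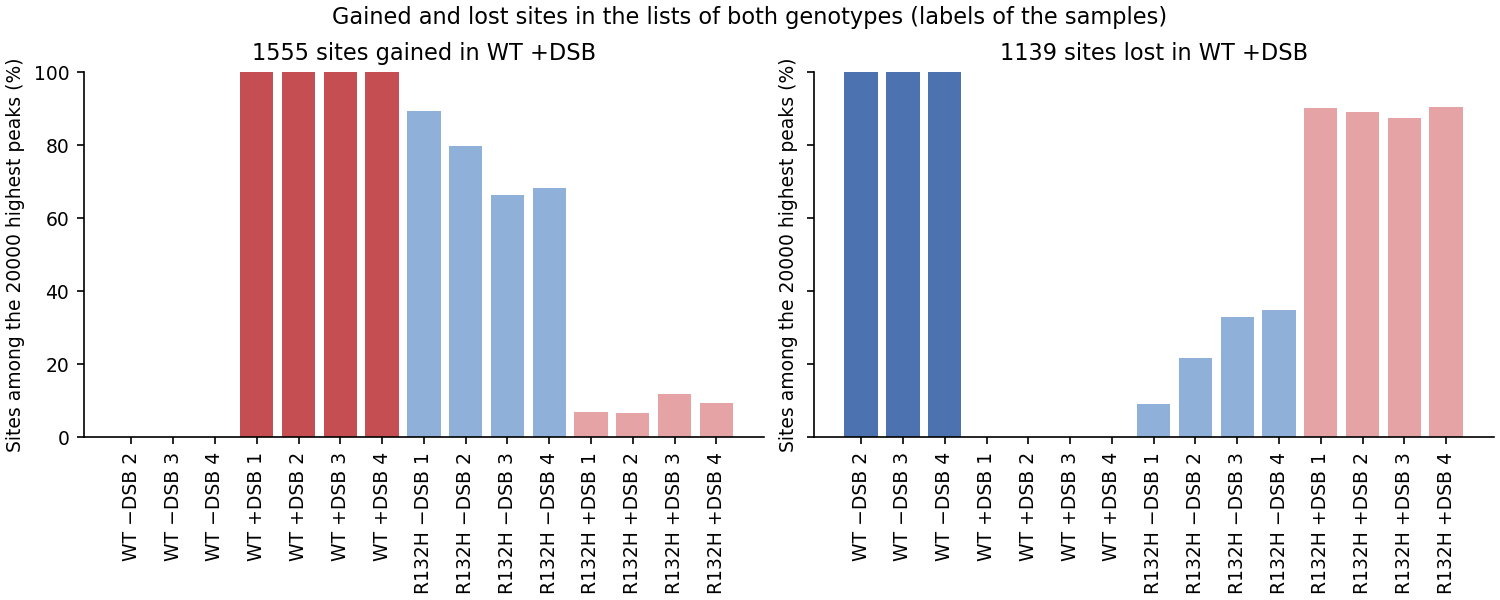
Percent of the gained sites (left) and lost sites (right) found among the 20000 highest peaks of each of the 15 lists, labelled by sample. WT bars are 0 or 100 by the definition of the calls. R132H −DSB lists hold 66.4% to 89.3% of the gained sites and R132H +DSB lists 6.69% to 11.9%, with the reverse order for lost sites.

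A small set of sites was called the same way whichever untreated lists were taken. Of the gained sites, 72 (4.63%) were also outside the 20000 in all 4 lists labelled IDH1 R132H −DSB, and of the lost sites 46 (4.04%) were inside it in all 4. In these 4 lists the sites lay near the limit, with a median of the mean rank of 22243 at the 72 gained and 16811 at the 46 lost sites. With these lists as the untreated group, limma called 0 of 23085 sites. The 72 sites had a mean GC content of 60.3%, 21 were at protein-coding promoters and 12 had the core. The 46 had a mean GC content of 36.3%, none at a protein-coding promoter and 12 with the core. The promoters, named after their values were seen, included PNMA6A, ZNF417, OLIG2, RORA, TUBB2A and DDAH2. At RORA, a nuclear receptor, the mean rank was 46194 in the lists labelled WT −DSB, 23437 in those labelled R132H −DSB and 15840 in WT +DSB. At TUBB2A, a beta-tubulin, it was 38151, 21817 and 13290. Of the 72 sites, 1 was in all 4 R132H +DSB lists and 63 in none. Of the 46 lost sites, 42 were in all 4 R132H +DSB lists.

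With the groups as labelled, the change with 4-OHT in the WT lists differed from that in the R132H lists. The promoter share changed by 2.69 percentage points in WT and by -1.23 in R132H, a difference of 3.93 points (exact permutation of the genotype within treatment, p = 0.005, the smallest possible, adjusted p = 0.00625). GC content, CpG islands and the AsiSI gap differed by 3.19, 4.31 and 1.88 points with the same p. The CTCF core differed by 0.859 points (exact permutation test, p = 0.205). These differences rest on the labels of the untreated lists. With the untreated lists exchanged as the run names have them, the promoter share changed by 1.32 points in WT and by 0.145 in R132H, a difference of 1.17 points (exact permutation test, p = 0.47, adjusted p = 0.51). GC content, CpG islands and the AsiSI gap then differed by 0.881, 1.30 and 0.696 points, and none of the 5 measures passed 0.05 (adjusted p = 0.51 for each, same exact permutation test).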

How the data were processed

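Per the labels and the study's methods, CTCF ChIP-seq reads were mapped to GRCh38 with Bowtie2. The submitters' processing notes give version 2.3.4.1 and also name cutadapt 1.18, and the paper gives another Bowtie2 version. Peaks were identified with MACS2, for which the paper's reporting summary states default settings and input as the control. The command printed there also carries the option --nolambda in brackets. Whether the fold takes account of the local input at each site was not checked here. The deposited lists give for each peak the fold (ratio) of the summit over background and the −log10 p and −log10 q, as the authors' caller wrote them, not normalized between lists.

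Peaks of chromosomes 1 to 22 and X were ranked by fold with ties broken by seed 11, and the 20000 highest of each list merged where they shared 1 bp. Genes are GENCODE release 44. CpG island-like windows had at least 50% GC and an observed to expected CpG ratio of 0.6. Lists of a group were counted as 1 sample when reads at summits within 60 bp (mean 20 to 50 reads) showed p of at least 0.05 against counting noise. Sample means were tested by exact permutation (two-sided, scipy 1.17.1), and folds by limma 3.58.1 with trend in R 4.3.3. The site calls and limma were also run on simulated data, and the outcome is not reported or relied on here. Named are the 10 gained and 10 lost promoter sites, and 5 and 5 farther than 10 kb from a protein-coding TSS, with the largest ratio of mean ranks (no peak counted as list size plus 1), and members of the gene lists that were gained, lost or passed limma. One of the lost distal sites under this rule is not reported here. Members and lists were chosen with earlier results of these data known. Deviations of same-numbered −DSB and +DSB lists from their group means correlated by 0.269, 0.173 and 0.124 for numbers 2, 3 and 4. They also correlated by 0.165 between −DSB 3 and +DSB 4 and by 0.138 between −DSB 4 and +DSB 3. The values thus do not tell numbers 3 and 4 apart. A blocked fit, run as an alternative, took the same numbers as pairs, with 3 and 4 as separate lists.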

Additional observations from a re-analysis of the deposited data

Results flagged for a closer look

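The change with 4-OHT differed between the lists labelled IDH1 WT and IDH1 R132H in 4 of 5 measures, by a permutation of the genotype within each treatment. The share of summits at protein-coding promoters differed by 3.93 percentage points, mean GC content by 3.19, CpG island-like windows by 4.31, and AsiSI sites minus control octamers by 1.88. Each had an exact permutation p of 0.005 over 200 arrangements. With the untreated lists exchanged as their run names have them, an alternative chosen after seeing the data, the differences were 1.17, 0.881, 1.30 and 0.696 points and none passed (exact permutation test, adjusted p = 0.51 for each). No group held 4 samples, so single samples were not checked for lying far from the rest.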

How the results depend on the processing

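The promoter, GC and CpG island differences kept their direction under every alternative run. With every list as its own sample they were 2.87, 2.37 and 3.20 points and the AsiSI gap 0.996 (exact permutation p = 0.0286 each, adjusted 0.0357). The CTCF core difference turned to -2.57 with the 10000 highest peaks, -0.42 with the run names, -0.21 without −DSB replicate 2 and -0.053 with the replicate block, and was 1.57 with a looser core and 3.51 with the 50000 highest peaks. Leaving out each list in turn gave -0.21 to 0.47 for the core. With the 50000 highest peaks the AsiSI gap turned to -0.757. The difference between genotypes was -4.05 for the core with 10000 peaks, 6.03 with 50000, and -0.735 for the AsiSI gap with 50000. With the untreated lists exchanged by run name, chosen after seeing the data, it was 1.17 for promoters, -0.81 for the core, 0.881 for GC, 1.30 for CpG islands and 0.696 for the AsiSI gap, and none passed. Gained and lost sites numbered 6195 and 3529 with 50000 peaks, 88 and 61 with the run names, and 7 and 2 when absence from the full lists was asked for. The limma counts were 3562 higher without normalization and 10060 lower with median centring, and with the run names both were 0 (3637 at an unadjusted p under 0.05). In sites with the core, an alternative chosen after seeing the data, they were 1592 and 1603. Leaving out each list in turn gave 3479 to 6724 higher and 1128 to 7109 lower, the lowest of both without −DSB replicate 2. With the replicate block and every list its own sample, 6993 were higher and 8244 lower, against 6982 and 7977 without it. The block left promoters at 3.13, GC at 2.55, CpG islands at 3.53 and the AsiSI gap at 1.06 points (exact permutation p = 0.25, the smallest 3 pairs allow), so the 4 measures that passed with every list its own sample did not pass under the block. PCDHGA10 did not pass limma without normalization (-0.76). The causes were not tested. Depth differs between the groups and limits what the full lists can show.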
